A study of Homo sapiens with 12 samples.

Results

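The comparison described here set 22Rv1 cells after 16 h with a compound that the series title calls an ONECUT2 inhibitor against 22Rv1 cells given vehicle. It used every probe set of the array that names 1 gene. Expression was measured on Affymetrix U133 Plus 2.0 arrays, 3 for each group, which are 6 of the 12 arrays of the series. Of 19775 named genes, 12635 were bright enough to be tested. The other 6 arrays came from the same line after 4 h or 6 h with the compound. All groups were 22Rv1, an established human prostate carcinoma line derived from a xenograft that relapsed after castration, grown in RPMI-1640 with fetal bovine serum, penicillin and streptomycin. The labels name the compound only by a code and give no dose. The vehicle arrays carry no treatment time, and a code element that stands in every other title is missing from those of the 16 h arrays. Compound, time in culture and whatever that element stands for cannot be told apart. The labels do not say whether replicates came from separate cultures, and p-values then reflect only how much these arrays vary, possibly for technical reasons alone.

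ONECUT2 belongs to the small ONECUT family, whose members bind DNA through a CUT domain and a homeodomain. The family is best known from liver, pancreas and neurons, and in prostate carcinoma ONECUT2 has been linked to loss of the androgen-dependent luminal state. Prostate luminal cells are known by secreted kallikreins, by the homeobox factor HOXB13 and by the forkhead factor FOXA1, which opens chromatin for the androgen receptor. Of the luminal marker genes fixed for this check, 8 were measured and none was at background on either group of arrays. Their summed linear signal ranged from 6516 to 6728 on the vehicle arrays and from 6823 to 7251 on the 16 h arrays. Of the 8, KRT18 rose and HOXB13, FOXA1 and TMPRSS2 fell. Endothelial markers were at background for 6 of 10 genes in both groups, with 3 tested and 0 changed, and the defining genes VWF and CDH5 were among those at background. Leukocyte markers were at background for 6 of 8 genes on vehicle arrays and 5 of 8 at 16 h, and 0 were tested. Of 10 fibroblast markers, 5 were at background on vehicle arrays and 4 at 16 h, 2 rose (COL1A1 and LUM) and 2 fell (COL3A1 and DCN). The summed fibroblast marker signal was 64.8 to 75.5 on vehicle arrays and 116 to 148 at 16 h. The fibroblast markers COL1A2, PDGFRB, FAP and POSTN were at background in both groups. The part of other cells in any result was not tested. In bulk RNA, fewer cells of a type and less RNA per cell cannot be told apart.

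The deposited values are log2 signals, so a difference of 1 is 2-fold, and the number of arrays limits the precision. Pearson's r over the tested genes was 0.996 to 0.998 between arrays of the same group and 0.982 to 0.987 between a 16 h and a vehicle array, across genes that are not independent replicates. The 3' minus 5' difference of the ACTB control probe sets was 2.73 to 2.87 on vehicle arrays and 4.00 to 4.18 on 16 h arrays, while the 5' control of 18S ribosomal RNA read 10.54 to 11.23 and 12.43 to 12.60. The sample labelling starts at the 3' end of messages. Levels set side by side below are of 1 probe set in different arrays, never of different genes.

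A gene was represented by its brightest probe set, the one with the highest mean over the 12 arrays. Rises, falls and changes are those with an adjusted p below 0.05 in the limma fit. At 16 h, 5405 of 12635 genes changed, which is 42.8%, with 3279 up (26.0%) and 2126 down (16.8%). The median log2 change over all tested genes was 0.05. A rise of at least 2-fold was seen for 349 genes (2.76%) and a fall of at least 2-fold for 130 (1.03%). At 3-fold or more there were 111 rises and 24 falls, at 4-fold or more 61 and 5, and at 8-fold or more 15 and 0. Outside the stress, hypoxia, metal, lysosome and cell cycle lists, and genes already described for the series, 4995 of 12043 genes changed (41.5%), 255 rose 2-fold or more (2.12%) and 108 fell 2-fold or more (0.897%). For 6503 genes (51.5%) the 16 h arrays lay all above or all below the vehicle arrays.

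Large changes lay across the whole signal range. In the dimmest quartile of genes, with mean log2 signals of 2.11 to 3.36, 475 rose and 209 fell, and 58 rose but only 3 fell 2-fold or more. In the second quartile, from 3.36 to 5.93, 161 genes rose and 45 fell 2-fold or more. The third quartile, up to 8.14, held 83 and 54 such genes, and the brightest, up to 13.52, held 47 and 28. The share of changed genes was 21.7%, 43.7%, 52.2% and 53.6% from the dimmest to the brightest quartile. By count, rises led falls in every quartile, among changed genes and among those changed 2-fold or more. For the dimmest quartile the 2-fold counts cannot compare the directions, because a fall of that size had little room above background. The highest unspiked control read 2.02 to 2.28 on vehicle arrays and 1.87 to 1.99 on 16 h arrays. The filter used the mean over all arrays, so a gene at background on vehicle arrays could pass through its 16 h signal. Beside these counts, 58 genes (0.459%) changed at 4 h and 4 (0.0317%) at 6 h against the same vehicle arrays, and 5390 (42.7%) differed between 16 h and 6 h.

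**Figure D1:**
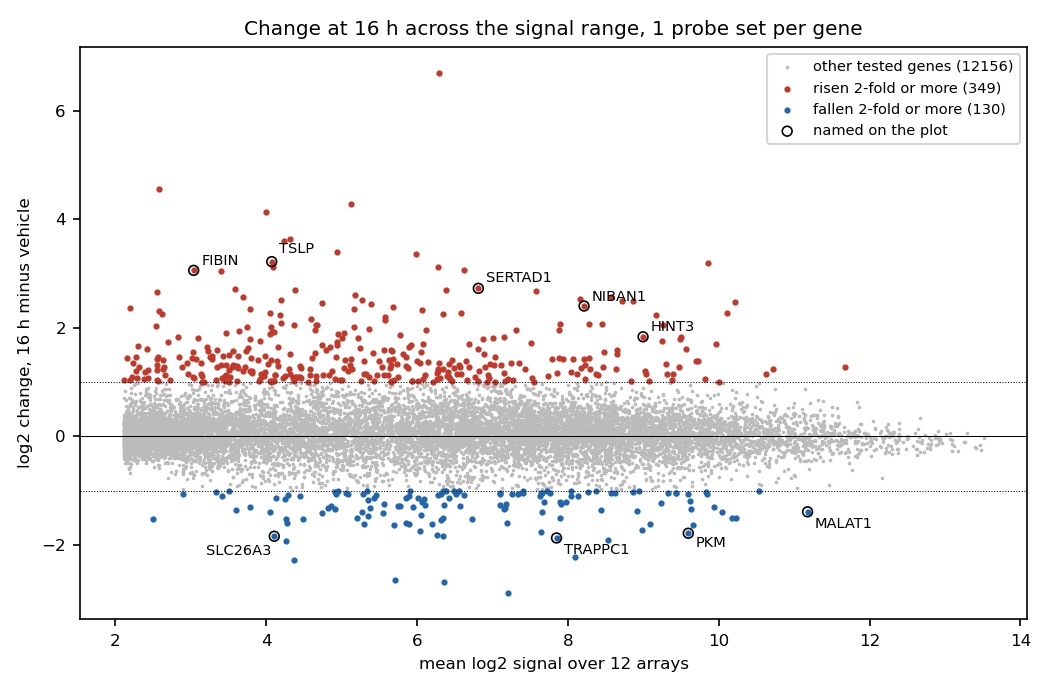
Each point is 1 of the 12635 tested genes, placed by its mean log2 signal over 12 arrays (horizontal axis) and its log2 change at 16 h minus vehicle (vertical axis), with dotted lines at 2-fold. The 349 genes that rose 2-fold or more (red) and the 130 that fell 2-fold or more (blue) span most of the signal range, and rings mark 9 genes described in the text.

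The first genes with large rises described here encode secreted signals, receptors and a receptor adaptor. Most genes named in this report were picked because their 16 h and vehicle arrays did not overlap. Many were picked also because their probe sets all changed the same way. Such separation and agreement are therefore no further support for a change. FIBIN, which encodes a secreted protein first known from fin development, read 2.21, 2.23 and 2.23 on the vehicle arrays and 5.07, 5.55 and 5.23 on the 16 h arrays (log2 change 3.06 ± 0.11 SE, adjusted p = 3.68e-09). Both of its probe sets rose. It was above the highest unspiked bacterial control on 2 of 3 vehicle arrays, so the size of its rise rests on values near background. That control read 2.02 to 2.28 on those arrays. TSLP, the epithelial cytokine thymic stromal lymphopoietin that acts on dendritic cells, read 2.86, 3.28 and 3.42 on the vehicle arrays and 5.91, 6.54 and 6.77 on the 16 h arrays (log2 change 3.22 ± 0.19 SE, adjusted p = 1.94e-07). It had a single probe set, and the lowest 16 h array stood far above the highest vehicle array. CALCA, which encodes calcitonin and its splice product CGRP, read 2.74, 2.60 and 3.46 on the vehicle arrays and 5.57, 5.65 and 5.72 on the 16 h arrays (log2 change 2.71 ± 0.19 SE, adjusted p = 6.21e-07). Its 3 probe sets all rose, although 1 vehicle array was higher than the other two. IL6R, the ligand-binding chain of the interleukin-6 receptor, read 3.69, 3.88 and 3.99 on the vehicle arrays and 6.12, 6.43 and 6.40 on the 16 h arrays (log2 change 2.46 ± 0.13 SE, adjusted p = 7.10e-08). The 3 arrays at 4 h read 4.53, 4.51 and 4.54 and those at 6 h 4.00, 4.50 and 4.23, between the vehicle and the 16 h values.

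HBEGF, a membrane-anchored ligand of the epidermal growth factor receptor, read 3.42, 3.57 and 3.57 on the vehicle arrays and 5.65, 5.50 and 6.10 on the 16 h arrays (log2 change 2.23 ± 0.16 SE, adjusted p = 1.03e-06), with both probe sets up. INHBA, the subunit that forms activin A, read 3.68, 3.50 and 3.50 on the vehicle arrays and 5.72, 5.52 and 5.73 on the 16 h arrays (log2 change 2.10 ± 0.22 SE, adjusted p = 1.58e-05). By the choice of genes, all 16 h arrays of HBEGF and INHBA were above all vehicle arrays. The 4 h arrays of INHBA were spread from 3.33 to 4.49. SPX, which encodes the peptide hormone spexin, read 1.81, 2.32 and 1.92 on the vehicle arrays and 3.63, 4.69 and 4.67 on the 16 h arrays (log2 change 2.31 ± 0.31 SE). SPX was above the highest unspiked control on 1 of 3 vehicle arrays and passed the filter through its signal on treated arrays, so its p-value is not given. Replicate 1 was the lowest of the 16 h arrays for FIBIN, TSLP, CALCA, IL6R and SPX. FZD7, a receptor for WNT ligands, read 3.29, 3.77 and 3.62 on the vehicle arrays and 5.62, 5.99 and 5.90 on the 16 h arrays (log2 change 2.27 ± 0.17 SE, adjusted p = 1.34e-06), on a probe set that agreed in direction with its other one. GRB10, an adaptor that binds insulin and IGF1 receptors and dampens their signal, read 4.78, 4.50 and 4.70 on the vehicle arrays and 7.16, 7.23 and 6.91 on the 16 h arrays (log2 change 2.44 ± 0.12 SE, adjusted p = 7.23e-08). All 3 tested probe sets of GRB10 rose, by 1.36 to 2.44.

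**Figure D2:**
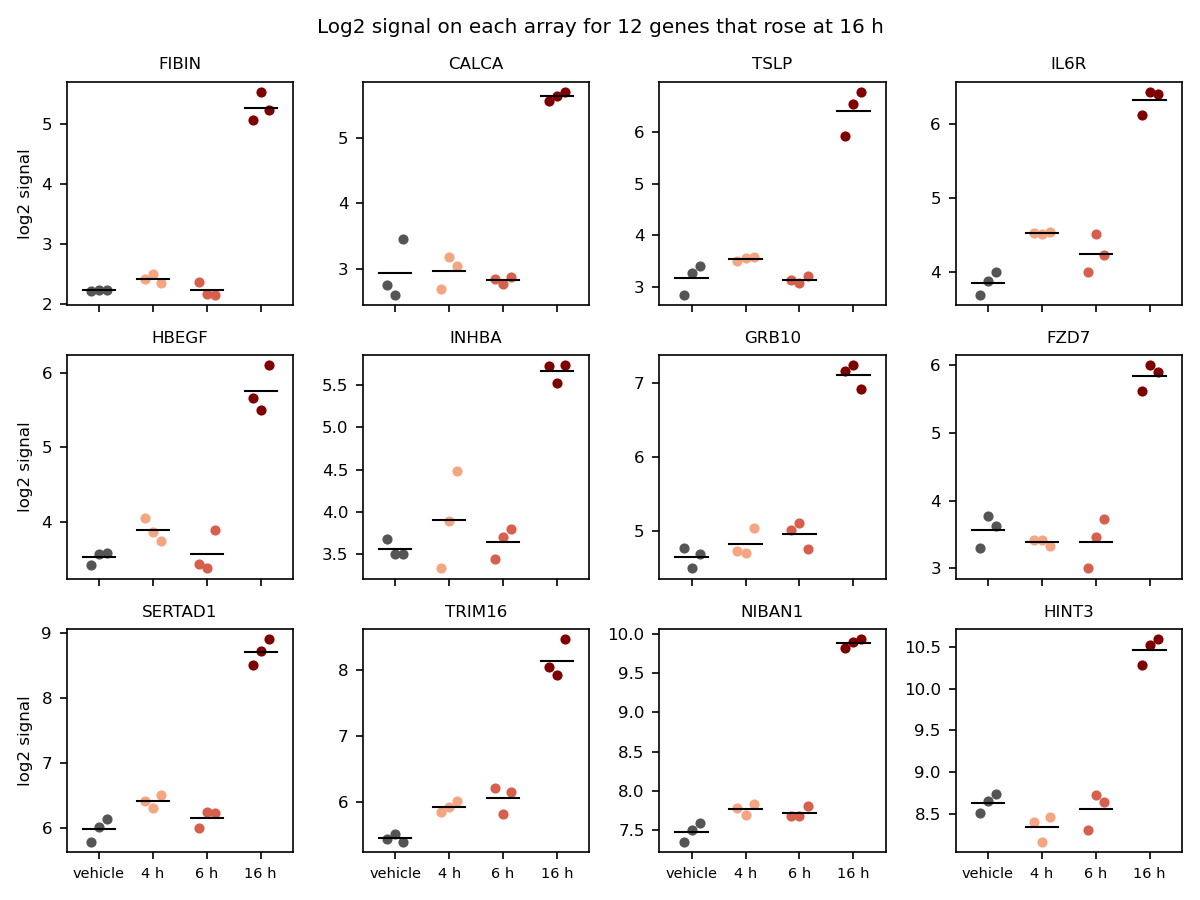
Log2 signal (vertical axes, each with its own range) on each array (points) of the vehicle, 4 h, 6 h and 16 h groups for 12 genes that rose at 16 h, with the mean of 3 arrays as a line. In every panel the 16 h arrays lie above all other arrays, and the 4 h and 6 h arrays lie nearer to the vehicle arrays than to those of 16 h. Separation of 16 h from vehicle arrays was a condition for choosing these genes.

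Intracellular regulators formed another set of large rises. SERTAD1, a cofactor of CDK4 and of E2F factors, read 5.78, 6.02 and 6.14 on the vehicle arrays and 8.50, 8.72 and 8.90 on the 16 h arrays (log2 change 2.73 ± 0.12 SE, adjusted p = 1.78e-08). TRIM16, a ubiquitin ligase of the TRIM family, read 5.43, 5.50 and 5.38 on the vehicle arrays and 8.04, 7.92 and 8.47 on the 16 h arrays (log2 change 2.70 ± 0.14 SE, adjusted p = 6.10e-08). NIBAN1, a stress-linked regulator of translation, read 7.35, 7.51 and 7.59 on the vehicle arrays and 9.82, 9.90 and 9.93 on the 16 h arrays (log2 change 2.40 ± 0.08 SE, adjusted p = 1.70e-09). The 16 h arrays of NIBAN1 were close together, and its second probe set rose too. OSER1, named for its response to oxidative stress, read 5.62, 5.88 and 6.02 on the vehicle arrays and 8.01, 8.15 and 8.22 on the 16 h arrays (log2 change 2.28 ± 0.12 SE, adjusted p = 8.51e-08). HINT3, a nucleotide hydrolase of the histidine triad family, was bright before treatment and read 8.51, 8.65 and 8.73 on the vehicle arrays and 10.28, 10.52 and 10.59 on the 16 h arrays (log2 change 1.84 ± 0.13 SE, adjusted p = 6.21e-07), with all 3 probe sets up. RAB39B, a small GTPase of vesicle transport known from neurons, read 4.97, 4.64 and 5.24 on the vehicle arrays and 6.82, 7.15 and 7.48 on the 16 h arrays (log2 change 2.20 ± 0.23 SE, adjusted p = 1.75e-05). The highest vehicle array of RAB39B was well below its lowest 16 h array.

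Membrane proteins and enzymes followed. ABCC5, an export pump of cyclic nucleotides, rose on 3 of 3 probe sets by 1.91 ± 0.14 SE on the log2 scale. PEX5L, an auxiliary subunit of HCN channels related to the peroxisome receptor, rose on 3 of 3 by 1.88 ± 0.10. CD55, which shields cells from complement, rose on 3 of 3 by 1.76 ± 0.09. ISG20, an exonuclease that interferon induces, rose on 2 of 2 by 1.86 ± 0.10. SERPINE2, the protease inhibitor nexin 1, had 1 probe set, which averaged 5.03 on vehicle arrays and 7.17 at 16 h (log2 change 2.15 ± 0.10 SE, adjusted p = 2.42e-08). TMEM133, kept under its annotated name, rose by 2.57 ± 0.14.

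A few genes went from background to a measured signal, so their rise has only a lower bound. MMP10, the matrix protease stromelysin 2, read 1.81, 1.44 and 1.89 on the vehicle arrays and 3.77, 4.53 and 4.83 on the 16 h arrays and was at least 4.71-fold higher. Its vehicle arrays were below the filter of 2.11, so it was tested only through its signal on treated arrays, and its p-value is not given. ARL14, an ARF-like GTPase, was at least 4.22-fold higher, with log2 signals of 3.62, 4.20 and 4.82 at 16 h. PLEKHH2, an actin-binding protein known from podocytes, was at least 3.51-fold higher, with 3.49, 3.87 and 4.49. The 16 h arrays of all 3 were widely spread, and replicate 1 was the lowest each time. The interstitial collagenase MMP1 was at least 3.86-fold higher, and the cytokine LIF at least 2.22-fold. Of genes described below, JAG1, IRF7, KCNT2, PCDH19 and ACTA2 were above the highest unspiked control on 2 of 3 vehicle arrays, and TNFRSF11B, MATN2 and GCNT3 on 1 of 3, so the sizes of their rises also rest on values near background.

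RNA45SN5, a copy of the precursor of ribosomal RNA, read 3.86, 3.54 and 3.59 on the vehicle arrays and 6.05, 5.78 and 6.74 on the 16 h arrays (log2 change 2.52 ± 0.20 SE, adjusted p = 1.77e-06). Both of its probe sets rose. The 18S and 28S control probe sets moved with it: the 28S 5' control read 9.95 to 10.09 on vehicle arrays and 10.86 to 11.21 on 16 h arrays. Whether this reflects the cells or the preparation of the RNA was not tested.

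The 250 bases before the start site of each gene, from RefSeq on GRCh38.p14, were searched on both strands for short motifs. Such a promoter was found for 10300 of the 12635 tested genes, and a match is a description of letters, not a binding site. CACGTG, the E-box that MYC, TFE and CLOCK factors can read, was in 8.89% of all these promoters, in 13.2% of the 272 promoters of genes that rose 2-fold or more (36 genes) and in 6.80% of the 103 promoters of genes that fell 2-fold or more (7 genes). Outside the stress and cell cycle lists, 28 of 198 promoters of 2-fold risers held it, or 14.1%. The promoters of 4 risers and 1 faller are shown because they carry this motif, given in capitals, with its distance before the start site:
SERPINE2, chr2:224031533-224031592, minus strand, 87 bases before: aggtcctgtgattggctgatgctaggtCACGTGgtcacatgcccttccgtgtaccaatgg
ISG20, chr15:88638875-88638934, plus strand, 114 bases before: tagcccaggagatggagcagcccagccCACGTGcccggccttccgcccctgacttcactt
SIRT1, chr10:67884585-67884644, plus strand, 44 bases before: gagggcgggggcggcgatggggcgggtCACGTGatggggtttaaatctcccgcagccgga
ARRDC4, chr15:97960466-97960525, plus strand, 210 bases before: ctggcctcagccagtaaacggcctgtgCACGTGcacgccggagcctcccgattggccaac
NAPA, chr19:47515064-47515115, minus strand, 25 bases before: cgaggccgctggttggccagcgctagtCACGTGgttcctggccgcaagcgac
Letters of the ONECUT core were rarer. ATCGAT was in 0.757% of all promoters, 0.735% of 2-fold risers (2 genes) and 0 of the 2-fold fallers. ATTGAT was in 2.91%, 1.47% (4 genes) and 0.971% (1 gene). These counts are too small to compare the shares. The cyclic AMP element TGACGTCA was in 2.85% of all, 4.41% of risers and 3.88% of fallers, and the antioxidant element core TGACNNNGC in 12.3%, 14.7% and 13.6%. No factor binding was measured in these samples.

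There were fewer large falls than large rises, as counted above. TRAPPC1, a subunit of the TRAPP complex that tethers vesicles at the Golgi, read 8.37, 8.24 and 8.45 on the vehicle arrays and 6.39, 6.35 and 6.69 on the 16 h arrays (log2 change -1.88 ± 0.10 SE, adjusted p = 8.58e-08). NUCB1, the Golgi calcium-binding protein nucleobindin 1, read 6.26, 6.19 and 6.46 on the vehicle arrays and 4.56, 4.49 and 4.98 on the 16 h arrays (log2 change -1.63 ± 0.12 SE, adjusted p = 1.46e-06). NAPA, or alpha-SNAP, which helps to take SNARE complexes apart, read 8.64, 8.79 and 8.88 on the vehicle arrays and 7.44, 7.30 and 7.51 on the 16 h arrays (log2 change -1.35 ± 0.08 SE, adjusted p = 2.95e-07). The groups did not overlap for these genes, as their choice required, and both probe sets of NUCB1 and of NAPA fell. GANAB, the catalytic subunit of glucosidase II that trims glycans in the endoplasmic reticulum, read 8.93, 8.88 and 8.99 on the vehicle arrays and 7.82, 7.95 and 7.87 on the 16 h arrays (log2 change -1.05 ± 0.07 SE, adjusted p = 6.53e-07). CLPTM1, a membrane protein of that compartment, read 8.03, 7.95 and 8.12 on the vehicle arrays and 6.62, 6.73 and 6.58 on the 16 h arrays (log2 change -1.39 ± 0.08 SE, adjusted p = 1.36e-07). SELENON, a selenoprotein there, fell by 2.75-fold, and VAMP2, a vesicle SNARE, fell on 3 of 3 probe sets with a log2 change of -1.01 ± 0.07 SE.

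GNAI2, an inhibitory G protein alpha subunit, read 7.60, 6.62 and 6.89 on the vehicle arrays and 5.29, 5.16 and 5.19 on the 16 h arrays (log2 change -1.82 ± 0.18 SE, adjusted p = 1.32e-05). Its vehicle arrays were spread over nearly 1 log2 unit, and the 4 h and 6 h arrays averaged 6.46 and 6.33, between the other groups. ADRA2A, the alpha-2A adrenergic receptor that signals through such G proteins, read 7.17, 7.22 and 7.31 on the vehicle arrays and 5.87, 5.70 and 5.56 on the 16 h arrays (log2 change -1.52 ± 0.10 SE, adjusted p = 3.03e-07). SLC26A3, an exchanger of chloride for bicarbonate, read 4.42, 4.82 and 4.89 on the vehicle arrays and 2.76, 2.95 and 2.89 on the 16 h arrays (log2 change -1.84 ± 0.15 SE, adjusted p = 2.29e-06), close to background at 16 h. KCNMA1, the pore of the large calcium-gated potassium channel, read 4.68, 4.78 and 4.79 on the vehicle arrays and 3.75, 3.55 and 3.65 on the 16 h arrays (log2 change -1.10 ± 0.10 SE, adjusted p = 5.77e-06). Its accessory subunit gene KCNMB4 fell too, with a log2 change of -0.71 ± 0.09 SE. CXCL13, a chemokine for B cells, fell to background at 16 h and was at least 1.96-fold lower.

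In the nucleus, AAAS, the nuclear pore protein aladin, read 5.87, 5.71 and 5.76 on the vehicle arrays and 4.22, 4.15 and 4.11 on the 16 h arrays (log2 change -1.62 ± 0.09 SE, adjusted p = 1.27e-07). HIRA, a chaperone that places histone H3.3, read 8.39, 8.36 and 8.63 on the vehicle arrays and 6.92, 7.21 and 6.70 on the 16 h arrays (log2 change -1.51 ± 0.13 SE, adjusted p = 3.99e-06). The 6 h arrays of HIRA averaged 8.02, below the vehicle mean of 8.46 and above the 16 h mean of 6.95. MAZ, a zinc finger factor, and HMG20B, a partner of the LSD1 repressor complex, fell on 2 of 2 probe sets with log2 changes of -1.38 ± 0.09 and -1.34 ± 0.12 SE. PTMS, the chromatin-linked acidic protein parathymosin, had a log2 change of -1.77 ± 0.12 on a probe set that can bind related genes. SBNO2, a transcriptional coregulator, fell with -1.15 ± 0.10 on both probe sets.

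Other falls on 2 of 2 probe sets were in ADISSP, a signalling protein secreted by fat cells (-1.33 ± 0.12 SE), in PRR16, a regulator of cell size (-1.32 ± 0.10), in CFAP69, a protein of the sperm flagellum and of olfactory cilia (-1.15 ± 0.12), in the mitochondrial immunophilin FKBP8 (-1.07 ± 0.12), and in the hydrolase PTER (-1.05 ± 0.13). The LIM protein CRIP1, with 1 probe set, read 7.16, 6.67 and 6.68 on the vehicle arrays and 4.90, 5.38 and 5.59 on the 16 h arrays (log2 change -1.55 ± 0.17 SE, adjusted p = 2.10e-05). The ACTB 5' control signal, on these same arrays, was 10.37 to 10.43 for vehicle and 8.91 to 9.17 at 16 h. The GAPDH 5' control did not fall: it read 12.936 to 12.958 on vehicle arrays and 13.003 to 13.029 at 16 h. No 3' minus 5' difference was taken for GAPDH, so this level does not measure 3' bias. Whether the lower ACTB 5' signal has a part in these falls was not tested.

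**Figure D3:**
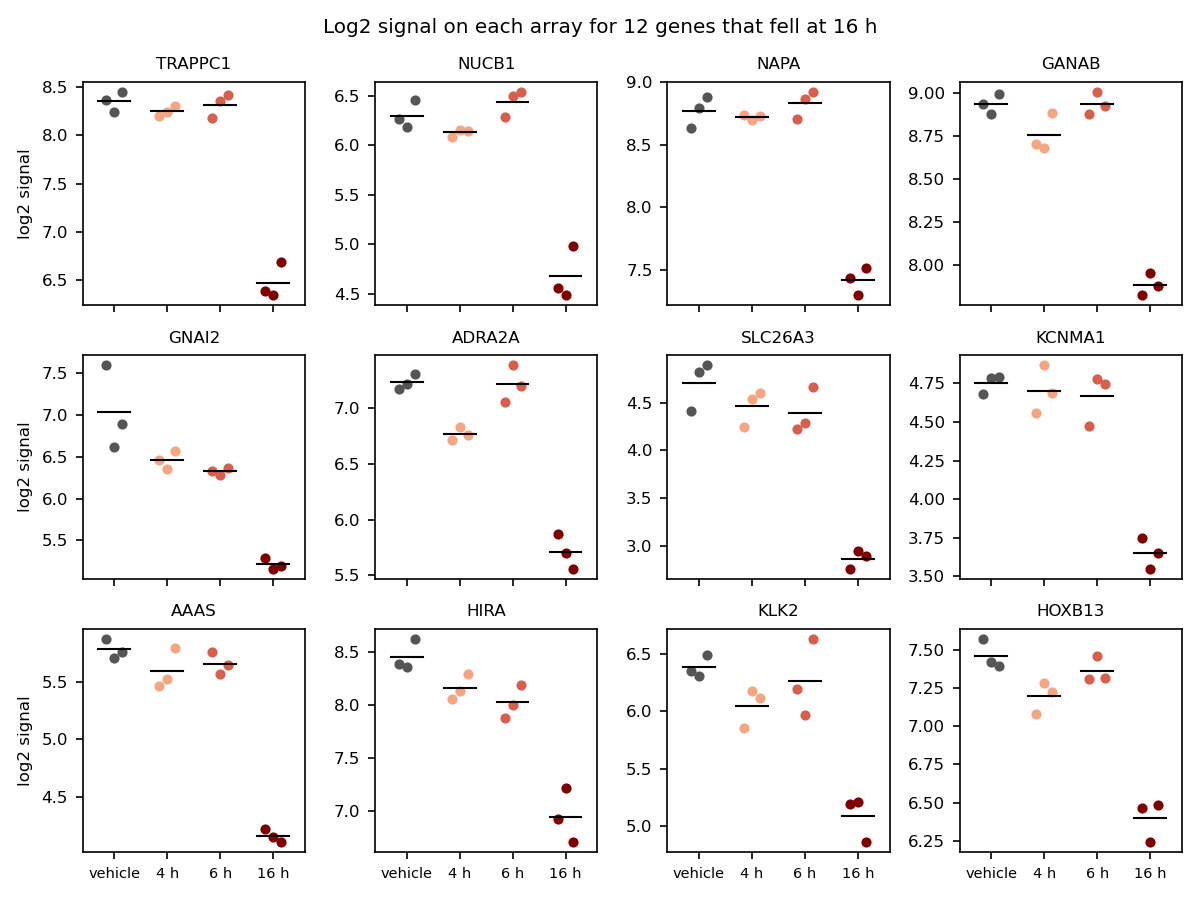
Log2 signal (vertical axes, each with its own range) on each array (points) of the vehicle, 4 h, 6 h and 16 h groups for 12 genes that fell at 16 h, with the mean of 3 arrays as a line. The 16 h arrays lie below all other arrays in every panel, and the vehicle arrays of GNAI2 are the most widely spread. Separation of 16 h from vehicle arrays was a condition for choosing most of these genes.

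The genes closest to the compound's stated target and to the prostate lineage moved by different amounts. ONECUT2 itself read 6.75, 6.58 and 6.80 on the vehicle arrays and 7.16, 7.47 and 7.10 on the 16 h arrays on its brightest probe set (log2 change 0.53 ± 0.10 SE, adjusted p = 0.00156). Of its other probe sets, 1 fell to background at 16 h, and changes of 0.27 and 0.41 on the remaining ones did not pass the test. With the mean of all its probe sets ONECUT2 showed no call (log2 change 0.05). ONECUT1 was not tested, since its only probe set read 1.74 to 1.80 on vehicle arrays and 1.30 to 1.54 at 16 h, below the filter. HOXB13 read 7.57, 7.42 and 7.39 on the vehicle arrays and 6.47, 6.24 and 6.48 on the 16 h arrays (log2 change -1.06 ± 0.09 SE, adjusted p = 2.78e-06), and its second probe set had a log2 change of -1.15. KLK2, a prostate kallikrein, read 6.35, 6.31 and 6.49 on the vehicle arrays and 5.19, 5.21 and 4.86 on the 16 h arrays (log2 change -1.30 ± 0.16 SE, adjusted p = 5.02e-05), with both probe sets down. KLK3, the kallikrein among the luminal markers, did not pass the limma test (log2 change -0.35, adjusted p = 0.065). The luminal markers KRT8, EPCAM and CDH1 did not pass either, and KRT18 rose. FOXA1 read 9.75, 9.64 and 9.73 on the vehicle arrays and 9.55, 9.52 and 9.29 on the 16 h arrays (log2 change -0.25 ± 0.07 SE, adjusted p = 0.0164), so the groups were separate by a narrow margin. This call was lost when only the 6 arrays were fitted (adjusted p = 0.065), without vehicle replicate 1 (0.053) or without 16 h replicate 3 (0.056), while the second FOXA1 probe set had a log2 change of -1.50.

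Agreement between probe sets differed with size and direction. Of 5913 genes with at least 2 tested probe sets, 827 (14.0%) had all of them changed the same way, 2897 had some changed one way, 437 (7.39%) had probe sets changed in opposite directions, and 1752 had none changed. Of 172 such genes that rose 2-fold or more, 99 (57.6%) had all probe sets up, 71 had some up and 2 (1.16%) had opposite calls. Of 65 that fell 2-fold or more, 33 (50.8%) had all down, 23 had some down and 9 (13.8%) had opposite calls. Brightest probe sets of these genes rose in 29.5% and fell in 17.2%, whereas their 10073 other probe sets rose in 21.0% and fell in 20.2%. Probe sets whose names end in _x_at, which can bind several related genes, rose in 18.2% and fell in 23.0% of 1935, against 24.3% and 14.9% of 13534 with a plain name. In all, 9362 of 22708 tested probe sets changed (41.2%), 23.3% up and 18.0% down.

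In 6 genes with wide opposite calls, other than MALAT1 and NUP58, at least 1 probe set fell by over 2 on the log2 scale while the brightest rose by 0.22 to 0.28. These small rises were not stable. When only the vehicle and 16 h arrays were fitted, those of CLIP1, ITPRID2, PRRC2C and SON did not pass (adjusted p = 0.053 to 0.066). The rise of SMARCA2 was lost without vehicle replicate 1 (0.072). CLIP1, a protein of growing microtubule ends, had log2 changes of -3.15, -0.41, 0.28 and 0.88. The steep one averaged 5.59 on vehicle arrays and 2.44 at 16 h, with 3.61 and 3.41 on the 4 h and 6 h arrays. Its vehicle arrays were widely spread, at 6.88, 4.56 and 5.32. Vehicle replicate 1 was the highest vehicle array on the steepest probe set of each of the 6 genes, so the sizes of these falls depend in part on that array. SON, a large splicing cofactor, ranged from -2.16 to 0.58 over 5 probe sets. PRRC2C, a protein of stress granules and translation, ranged from -2.58 to 0.22 over 6. For ITPRID2, which binds inositol trisphosphate receptors, 1 probe set fell to background at 16 h, where it was at least 3.58-fold lower, and the brightest rose by 0.26. NAA15, the anchor of the N-terminal acetyltransferase NatA, had -2.38 and 0.24 at its ends, and SMARCA2, a motor subunit of SWI/SNF chromatin remodelling, -2.04 and 0.26.

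MALAT1, a long noncoding RNA of nuclear speckles, had 11 tested probe sets, of which 7 fell, 2 rose and 2 did not pass, from -1.98 to 1.08. Its brightest probe set read 11.96, 11.46 and 11.86 on the vehicle arrays and 10.29, 10.33 and 10.49 on the 16 h arrays (log2 change -1.39 ± 0.16 SE, adjusted p = 3.86e-05). NUP58, a nuclear pore channel protein, went the other way on its brightest probe set: 3 rose by 0.50 to 1.40 and 1 fell by 1.03 on the log2 scale. PKM, the pyruvate kinase of glycolysis, read 10.25, 9.98 and 10.02 on the vehicle arrays and 8.13, 8.37 and 8.38 on the 16 h arrays on its brightest probe set (log2 change -1.79 ± 0.09 SE, adjusted p = 4.70e-08), and a dim one rose by 0.38. UBN1, a partner of HIRA, read 7.70, 6.78 and 7.35 on the vehicle arrays and 5.91, 5.37 and 5.05 on the 16 h arrays (log2 change -1.83 ± 0.28 SE, adjusted p = 3.00e-04), and a dim one rose by 0.25. Calls for these genes therefore hold for the probe set named and not for the gene as a whole. Which part of each transcript the probe sets read was not tested, and the 3' minus 5' ACTB difference was larger on the 16 h arrays, as given above. The GAPDH 5' control, also given above, was not lower on those arrays, but without a GAPDH 3' signal it gives no such difference.

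**Figure D4:**
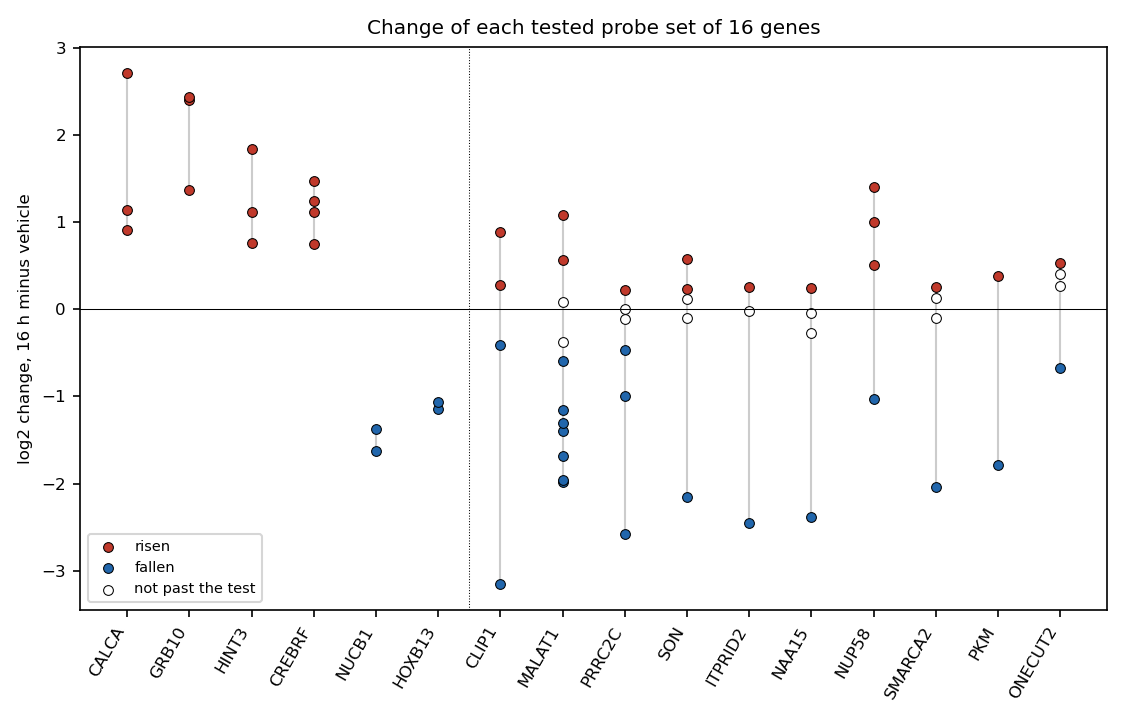
Log2 change at 16 h minus vehicle (vertical axis) of every tested probe set (points) of 16 genes, red for risen, blue for fallen and white for not past the test. Left of the dotted line the probe sets of each gene changed the same way; right of it each gene has calls in both directions, with CLIP1 ranging from -3.15 to 0.88.

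Gene families were counted on 1 probe set per gene, and counts are read against the 26.0% of all tested genes that rose, the 16.8% that fell and the median log2 change of 0.05. Of 72 family lists, 52 had more risen than fallen members, 16 more fallen and 4 equal numbers. Under at least 1 alternative of processing 29 of the lists with unequal numbers turned or tied, and 19 of these turned; among the lists described below, those of RGS proteins, cyclic nucleotides, ephrins, gap junctions, integrins, actins, cilium transport, potassium channels, mitochondrial carriers, polyamines and helix-loop-helix factors did so under the other filter, probe set, fit or replicate choices, not under another array scaling. Among ligands and receptors, the TNF family, which carries death and survival signals, had the most uneven counts: 7 of 28 rose and 0 fell (median 0.03), and 6 of the 7 rises were 2-fold or more. Since no member fell, its changed share was also its risen share: 25%, against 42.8% and 26.0% of all tested genes. TNFRSF10B, the death receptor for TRAIL, rose by 2.07 ± 0.07 SE (log2). The decoy receptor genes TNFRSF11B and TNFRSF10D rose by 1.74 ± 0.12 and 1.65 ± 0.20, and the ligand gene TNFSF9 by 1.47 ± 0.16.

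Of interleukins, chemokines and their receptors, 7 of 38 rose and 7 fell (median -0.09). Apart from IL6R and LIF, the chemokine receptor gene CXCR4 rose by 1.43 ± 0.15 SE on 1 of its 3 probe sets. In the interferon and MHC class I list, 10 of 37 rose and 5 fell (median 0.13). The antiviral synthetase OAS3 fell (-0.94 ± 0.10), as did the interferon regulator IRF3 (-0.73 ± 0.10), while IRF7 rose (0.76 ± 0.08). Of receptor tyrosine kinases and ligands outside the FGF family, 4 of 24 rose and 1 fell (median 0.06), with MET, the hepatocyte growth factor receptor, at 1.28 ± 0.18 and KITLG, the KIT ligand, at 0.93 ± 0.15. In the list of the FGF pathway and its Sprouty feedback genes, 4 of 17 rose and 1 fell (median 0.03). Of the 4 rises, 3 were pathway inhibitors, a group the list includes by design: SPRY1 (0.81 ± 0.15), SPRED1 (0.74 ± 0.12) and SPRY2 (0.68 ± 0.11).

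Of ephrins and Eph receptors, 3 of 16 rose and 4 fell (median -0.16), with rises of EFNB2 (0.97 ± 0.12 SE), EFNA1 (0.82 ± 0.10) and EPHA2 (0.78 ± 0.13). Axon guidance genes changed in 19.4% of members, under the background share: 3 of 31 rose and 3 fell (median 0.06), the largest being NTN4, a netrin of basement membranes, at 2.01 ± 0.16. In the WNT list, 7 of 32 rose and 6 fell (median 0.02), and besides FZD7 the secreted inhibitor gene WIF1 fell with -1.05 ± 0.14. Of Notch genes 7 of 23 rose and 3 fell (median 0.14), with the ligand gene JAG1 at 0.52 ± 0.13. The order of rises and falls in the WNT list turned under both other array scalings, and turned or tied under most of the remaining alternatives.

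Inside the cell, regulators of G protein signalling had 5 of 12 rose and 2 fell (median 0.20), with RGS3 at 1.20 ± 0.15 SE. Of cyclic nucleotide enzymes and targets, 8 of 38 rose and 7 fell (median 0.00). AKAP12, a scaffold of protein kinase A, rose on 4 of 4 probe sets by 1.44 ± 0.11, and the cyclic AMP response factor CREM on 5 of 5 by 0.68 ± 0.13. PRKAR2B, a regulatory subunit of that kinase, fell with -0.95 ± 0.10. In the phosphoinositide list AKT1, the kinase downstream of PI3K, fell with -1.02 ± 0.11, while 12 of 50 rose and 6 fell (median 0.07), which became 8 and 8 with median centring. For the MAP kinase cascade 11 of 37 rose and 5 fell (median 0.04), with the atypical kinase MAPK6 at 0.89 ± 0.07 and HRAS at -0.68 ± 0.09. Of tyrosine phosphatases 11 of 31 rose and 6 fell (median 0.17), which became 6 and 6 with the mean of probe sets, and of serine/threonine phosphatase subunits 25 of 72 rose and 8 fell (median 0.04). PPM1D, the phosphatase WIP1, rose by 1.32 ± 0.08 on 2 of 2 probe sets, PPP2R2C by 1.07 ± 0.12, and PPP1R9B, the spine protein neurabin 2, fell with -1.36 ± 0.16.

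Of the arrestin-domain adaptors, which send membrane proteins to ubiquitin ligases, 3 of 6 rose and 2 fell (median 0.32). ARRDC3 rose by 1.81 ± 0.11 SE, ARRDC4 by 1.16 ± 0.12 and ARRDC2 by 0.87 ± 0.11, whereas ARRDC1 fell with -0.72 ± 0.15. In the JAK, STAT and SOCS list 5 of 20 rose and 3 fell (median 0.09), with the kinase gene JAK1 at 1.65 ± 0.17 on 1 of 2 probe sets and the STAT inhibitor PIAS1 at -1.17 ± 0.18 on 1 of 3. Those calls rest on single probe sets.

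Among genes of vesicle traffic, of Rab GTPases and their TBC1D regulators, 24 of 73 rose and 15 fell (median 0.12), with the endosomal RAB5C at -0.83 ± 0.10 SE and TBC1D10B at -0.97 ± 0.11. Of SNAREs and synaptotagmins, 19 of 55 rose and 8 fell (median 0.10), and the epithelial SNARE STX3 rose by 0.90 ± 0.08. ESCRT, retromer and sorting nexin genes, which sort endosomal cargo, had few falls: 23 of 74 rose and 4 fell (median 0.10), with VPS37B at 0.87 ± 0.11 and CHMP4C at 0.77 ± 0.07.

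Transporters differed by class. ABC transporters had 11 of 26 rose and 2 fell (median 0.24): besides ABCC5, the drug efflux pump ABCG2 rose by 1.76 ± 0.16 SE and ABCC1 by 0.88 ± 0.10. Of mitochondrial carriers 6 of 40 rose and 9 fell (median -0.01), with SLC25A36, a pyrimidine nucleotide carrier, at 0.97 ± 0.07 and the calcium-regulated SLC25A23 at -0.92 ± 0.10. In the remaining SLC carriers 22 of 91 rose and 18 fell (median 0.00), led upward by the copper transporter SLC31A1, on 3 of 3 probe sets (1.26 ± 0.15). The anion exchanger SLC4A2 fell with -1.25 ± 0.13. Potassium channel genes changed in 26.9%: 3 of 26 rose and 4 fell (median -0.11), with KCNT2, a sodium-activated channel, at 1.40 ± 0.12. The order in the SLC list turned under both other scalings.

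At the cell surface, tetraspanins, which organise membrane microdomains, mostly fell where they changed: 1 of 24 rose and 6 fell (median -0.09). CD151 fell with -1.01 ± 0.15 SE, CD9 with -0.90 ± 0.06 and TSPAN1 with -0.66 ± 0.11. Of gap junction genes 2 of 7 rose and 3 fell (median -0.22), with connexin 43, GJA1, at -0.94 ± 0.07 and connexin 45, GJC1, at -0.72 ± 0.12. Of claudins and tight junction proteins 6 of 17 rose and 1 fell (median -0.00): CLDN3 fell with -0.91 ± 0.14, while CLDN1 and OCLN rose by 0.61 ± 0.10 and 0.43 ± 0.10. Cadherins and protocadherins had 7 of 27 rose and 4 fell (median 0.19), with PCDHB6, PCDH19 and CDH12 at 1.31, 1.07 and 1.00. Of integrins 1 of 15 rose and 2 fell (median 0.07), the collagen receptor subunit ITGA2 being the riser (0.87 ± 0.17).

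Of matrix proteins 7 of 32 rose and 2 fell (median 0.05). COL1A1, the main chain of type I collagen, rose on 2 of 3 probe sets by 2.05 ± 0.20 SE, MATN2 by 1.62 ± 0.28, and fibronectin, FN1, on 4 of 4 by 0.73 ± 0.13. AGRN, the heparan sulfate proteoglycan agrin, fell with -0.83 ± 0.13 on 2 of 2. The summed fibroblast marker signal given above, higher at 16 h, includes COL1A1 itself, so it is no separate measure. Of the other fibroblast markers LUM rose, and COL3A1 and DCN fell. The part of other cells was not tested. Matrix proteases and inhibitors had 12 of 44 rose and 8 fell (median 0.00), with SERPINB8 at 1.82 ± 0.11. Annexins and S100 proteins had 7 of 19 rose and 3 fell (median 0.03), with ANXA3 at 1.24 ± 0.13 and ANXA2 at 0.89 ± 0.07 on 3 of 3. Among glycan enzymes 16 of 69 rose and 10 fell (median 0.03): the mucin enzyme GCNT3 rose by 1.44 ± 0.18 and its relative GCNT1 fell with -0.90 ± 0.07.

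In the cytoskeleton, 8 of 45 rose and 10 fell (median -0.02) among actins, myosins and tropomyosins. ACTA2, smooth muscle actin, rose by 1.02 ± 0.19 SE, while TPM4 and ACTN4 fell with -0.89 ± 0.21 and -0.81 ± 0.09. Tubulins and microtubule-associated proteins changed in 69.0% of members, more often than all genes and equally in both directions: 10 of 29 rose and 10 fell (median 0.11), with MAP1B at 1.02 ± 0.06 and TUBB2B at 0.88 ± 0.12. Cilium transport genes changed in 25.7%, with 4 of 35 rose and 5 fell (median 0.01), among them BBS12 at 0.97 ± 0.22 and IFT27 at -0.96 ± 0.06.

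In metabolism, nucleotide synthesis and salvage fell more than it rose: 6 of 47 rose and 13 fell (median -0.06). AK1, an adenylate kinase, fell with -0.76 ± 0.06 SE and APRT, which salvages adenine, with -0.59 ± 0.08, both on 2 of 2 probe sets. Against that, UPP1, which breaks down uridine, rose by 1.49 ± 0.17. Polyamine genes had 5 of 17 rose and 3 fell (median 0.15): SAT1, which acetylates polyamines for breakdown, rose by 1.00 ± 0.06 on 3 of 3, and SRM, which makes spermidine, fell with -0.53 ± 0.08. Of NAD enzymes, sirtuins and PARPs 10 of 28 rose and 3 fell (median 0.14), with the deacetylase SIRT1 at 1.25 ± 0.10, PARP8 at 1.14 ± 0.21 and NAMPT, the rate-limiting enzyme of NAD salvage, at 0.75 ± 0.09. Sphingolipid genes had 8 of 30 rose and 2 fell (median 0.08), with the ceramidase ACER2 at 0.87 ± 0.14 and UGT8, which makes galactosylceramide, at -0.80 ± 0.08. Aldehyde, retinol and short-chain dehydrogenases had 7 of 43 rose and 12 fell (median -0.07), although the carbonyl reductase CBR1 rose by 1.19 ± 0.13. Of cytochrome P450 and conjugating enzymes 5 of 24 rose and 3 fell (median 0.08), the CYP1 genes being the largest rises and CYP2C8 a fall (-0.62 ± 0.14).

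Among genes of transcription and RNA handling, of RNA polymerase II, Mediator and general factors 29 of 77 rose and 13 fell (median 0.13), with 0 of them 2-fold. MED12, a subunit of the Mediator kinase module, fell on 3 of 3 probe sets with -0.89 ± 0.10 SE, and MED26 rose by 0.85 ± 0.08. In ribosome biogenesis and RNA polymerases I and III, 18 of 63 rose and 7 fell (median 0.13). MAF1, the repressor of RNA polymerase III, fell with -1.01 ± 0.14, while the polymerase III subunit POLR3C and its factor BRF2 rose by 0.98 ± 0.08 and 0.92 ± 0.11, each on 2 of 2. Translation factors had 21 of 53 rose and 8 fell (median 0.12), with EIF4EBP1, the inhibitor of cap binding, at 0.76 ± 0.09. Nuclear pore and transport genes fell more than they rose: 9 of 52 rose and 16 fell (median 0.02), with AAAS as above, NUP210 at -0.96 ± 0.10 on 4 of 5 probe sets and IPO9 at -0.68 ± 0.07.

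In each list of ubiquitin enzymes the share of rises was above the 26.0% of all genes. Of deubiquitinases 23 of 53 rose and 6 fell (median 0.22), with USP53 and USP38 up on 3 of 3 probe sets each by 0.84 ± 0.12 and 0.64 ± 0.07 SE. Of F-box proteins and cullins 19 of 57 rose and 7 fell (median 0.14): FBXO32, the ligase of muscle wasting, rose by 1.14 ± 0.14 on 4 of 4, FBXO30 by 1.02 ± 0.09 on 2 of 2, and FBXW7, which targets cyclin E and MYC, by 1.00 ± 0.14 on 2 of 3. Of TRIM, RNF and KLHL proteins 36 of 122 rose and 18 fell (median 0.09), with KLHL24, a regulator of keratin turnover, at 1.53 ± 0.20 on 4 of 4 and RNF19B at 1.39 ± 0.08 on 2 of 2. These were again counts on 1 probe set per gene, and ubiquitin-conjugating E2 enzymes, with 9 of 24 rose and 3 fell (median 0.15), tied when probe sets were averaged.

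**Figure D5:**
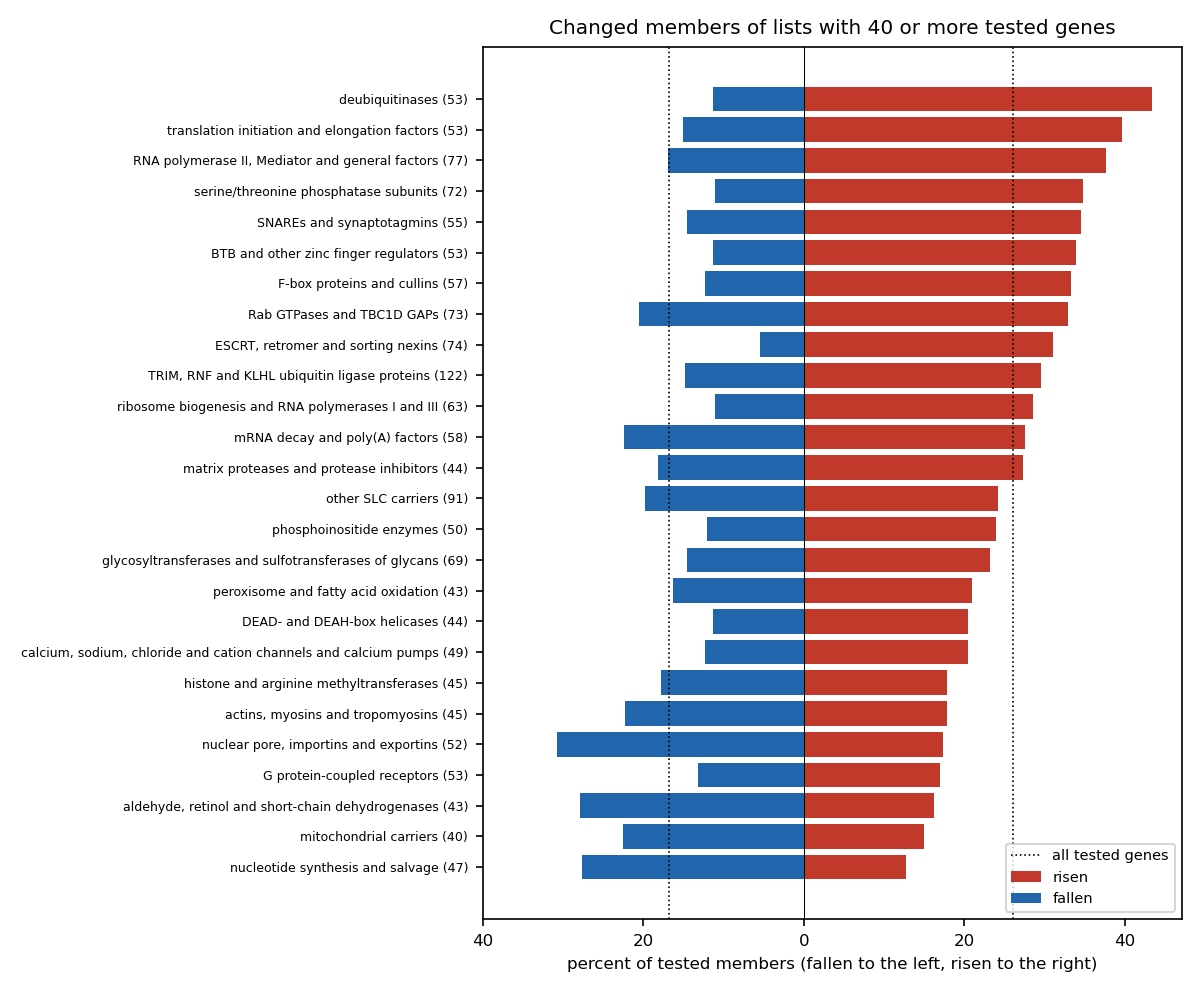
Percent of tested members that rose (red, to the right) and fell (blue, to the left) at 16 h in each list with 40 or more tested genes, whose number stands in parentheses, with dotted lines at the shares of all tested genes (26.0% and 16.8%). Deubiquitinases had the largest share of rises in the plot, 43.4%, and nuclear pore genes the largest share of falls, 30.8%.

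Families of transcription factors went different ways. Forkhead factors had the highest median of the transcription factor lists: 9 of 17 rose and 2 fell (median 0.42). FOXO1, which insulin signalling holds out of the nucleus, rose by 1.12 ± 0.17 SE, FOXP2 by 0.77 ± 0.18 on 2 of 2, and FOXM1, a factor of cell division, fell with -0.85 ± 0.07. ETS factors had 7 of 18 rose and 3 fell (median 0.14): ETV5, a target of FGF and ERK signals, rose by 1.92 ± 0.13 on 3 of 4 probe sets, ETS2 by 1.01 ± 0.11 on 2 of 2, and the epithelial factor ELF5 fell with -1.14 ± 0.10. Of BTB and other zinc finger regulators 18 of 53 rose and 6 fell (median 0.15), with ZBTB43 at 1.42 ± 0.13 on 4 of 5 and ZBTB16, or PLZF, at -1.34 ± 0.08.

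Of HOX genes 1 of 15 rose and 5 fell (median -0.14): HOXC4 fell with -1.26 ± 0.12 SE, HOXB13 as above and HOXB5 with -0.71 ± 0.11. Of SOX factors 1 of 10 rose and 4 fell (median -0.06), with SOX5 at -0.57 ± 0.09, SOX4 at -0.54 ± 0.06 on 5 of 6 probe sets and SOX9 at -0.33 ± 0.07 on 2 of 2. Of GATA, PAX, IRX, T-box and related factors 1 of 19 rose and 5 fell (median -0.04), with IRX3 at -0.33 ± 0.09. Among helix-loop-helix factors 6 of 25 rose and 3 fell (median 0.00), with TCF4 at -0.61 ± 0.07 on 5 of 6. Cancer-testis genes, silent in most adult tissues, had 2 of 12 rose and 5 fell (median -0.17), led by SSX3 at -0.98 ± 0.10 on 3 of 3 probe sets and SSX1 at -0.79 ± 0.08, near-identical genes that probe sets may not tell apart.

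Among chromatin enzymes, of histone acetyltransferases, deacetylases and bromodomain proteins 7 of 33 rose and 6 fell (median 0.10), an order that quantile normalisation turned, with HDAC5 at 0.86 ± 0.13 SE on 2 of 2 probe sets. Of histone and arginine methyltransferases 8 of 45 rose and 8 fell (median 0.06), with SETD6 at -0.61 ± 0.07 on 2 of 2. Among DNA methylation and TET enzymes 6 of 14 rose and 1 fell (median 0.03), which became 1 and 4 with the mean of probe sets and 3 and 3 without 16 h replicate 3. TET2, which oxidises methylcytosine, rose by 1.07 ± 0.14, and DNMT1, which copies methylation after replication, fell with -0.37 ± 0.06.

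Of G protein-coupled receptors 9 of 53 rose and 7 fell (median -0.04), which became 6 and 14 with quantile normalisation and 7 and 9 with median centring, and the muscarinic receptor gene CHRM3 rose by 0.80 ± 0.14 SE on 2 of 3 probe sets. Of calcium, sodium, chloride and cation channels and calcium pumps 10 of 49 rose and 6 fell (median 0.03), which became 6 and 7 with quantile normalisation; ATP2C1, the calcium pump of the Golgi, rose by 0.51 ± 0.07 on 4 of 4 and STIM1, the calcium sensor of the endoplasmic reticulum, fell with -0.51 ± 0.08. Of sodium pump subunits and acid-base exchangers 5 of 19 rose and 2 fell (median 0.09), which became 4 and 5 with quantile normalisation, with SLC4A2 as above. Of peroxisome and fatty acid oxidation genes 9 of 43 rose and 7 fell (median 0.01), with ACADL, a mitochondrial acyl-CoA dehydrogenase, at -0.68 ± 0.11 on 2 of 2. In this list falls led rises under both other array scalings, and led or tied under most of the remaining alternatives. Of mitochondrial dynamics and import genes 9 of 39 rose and 5 fell (median 0.02), which became 7 and 7 without 16 h replicate 3, with the import protein gene TIMM10B at 0.78 ± 0.09 on 2 of 2.

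Of mRNA decay and poly(A) factors 16 of 58 rose and 13 fell (median 0.03), which became 10 and 13 with the mean of probe sets, with LSM2, a subunit of the ring that binds U6 RNA or decaying messages, at -0.69 ± 0.07 SE. Of DEAD- and DEAH-box helicases 9 of 44 rose and 5 fell (median 0.09), which became 5 and 5 without vehicle replicate 3, with DDX52 at 0.58 ± 0.10 on 3 of 3. Of hnRNP proteins, which bind nascent transcripts, 2 of 19 rose and 4 fell (median 0.03), which became 3 and 3 without 16 h replicate 2, with HNRNPK at -0.29 ± 0.05 on 2 of 2. Among the smallest lists, Hedgehog genes had 2 of 8 rose and 1 fell (median -0.04), BTG, TOB and CITED regulators 2 of 5 rose and 1 fell (median 0.17) and mucins and trefoil factors 1 of 6 rose and 0 fell (median -0.13), and each of these turned or tied under at least 1 alternative. MUC13, a membrane mucin, rose by 1.33 ± 0.16 on 2 of 2.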

How the data were processed

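RNA of 22Rv1 cells was extracted with an RNeasy column and labelled from the 3' end with an in vitro transcription kit before hybridisation, per the labels' protocols. The deposited table holds log2 signals of 54675 probe sets on each of 12 arrays. Per the submitters' processing notes, which give no version, the authors used GCRMA, a method that removes sequence-dependent background, brings arrays to a common distribution and combines the probes of a set. Such values would not show a change shared by most genes.

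Probe set names came from the platform annotation and were updated through RefSeq: 41097 had 1 symbol, 1801 several and 11777 none listed. A gene was tested on its brightest probe set where the mean over 12 arrays was at least 2.11, the median of all probe sets. One limma 3.58.1 model (R 4.3.3) held the 12 arrays in 4 groups (8 residual and 3.69 prior degrees of freedom). Two-sided p-values underwent the Benjamini-Hochberg adjustment over all tested genes, or over all tested probe sets for calls of single probe sets. On simulated data the fit of 12635 genes recovered 71.8% of genes changed by 0.5 and 97.8% changed by 1 (log2). Of its calls 4.17% were false, over 5 runs. The simulation used independent noise and changed a far smaller share of genes than the 42.8% called here. Its rates therefore need not hold for these data. A group was at background where each array was at or below its highest unspiked control, and "at least" folds are against that control.

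The comparison, the gene lists and the rule for named genes were chosen with earlier results of these data known. The rule took, outside the stress and cell cycle lists and with arrays not overlapping, the 15 largest rises and 15 largest falls among genes whose probe sets (2 or more) all changed the same way, the 10 and 10 largest among genes with 1 probe set, the 2 and 2 largest per quartile of signal, up to 4 members of each family list (members of excluded lists allowed), the 8 widest opposite calls, and ONECUT2, ONECUT1, FOXA1 and HOXB13 in every case. One further gene of the rule and 1 further gene family are not reported here. A few non-family genes caught by name patterns were taken out of the lists after their values were seen. Lists are described by counts and medians, with no set test.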

Additional observations from a re-analysis of the deposited data

Results flagged for a closer look

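CYP1A2, a liver enzyme induced by aryl hydrocarbon receptor ligands, moved in opposite directions at 4 h and 16 h against the shared vehicle arrays. Its brightest probe set read 7.61, 7.62 and 7.70 on vehicle arrays, 6.73, 6.88 and 7.04 at 4 h, 7.60, 7.34 and 7.52 at 6 h and 8.62, 8.54 and 8.66 at 16 h. The difference between 16 h and 4 h, tested in the limma fit, was 1.72 ± 0.09 SE on the log2 scale. The probe set is of the _x_at class, and the other tested CYP1A2 probe set had a log2 change of -0.16 at 16 h that did not pass the test.

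Probe sets with no gene symbol or with several, which the counts of genes leave out, also differed from vehicle at 16 h. Of 4598 that passed the filter, 1518 changed (33.0%), 1016 up and 502 down, and 197 rose and 60 fell 2-fold or more.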

How the results depend on the processing

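Under 16 alternatives the count of changed genes stayed within 1.5 times the main 5405, from 4488 with a filter at the 75th percentile to 5696 with a replicate block. The samples share only a number: same-numbered vehicle and 16 h arrays deviated together with correlations of 0.0939, -0.0044 and 0.0273. Genes that rose 2-fold or more numbered 207 with the 75th percentile filter and 196 with the mean of probe sets, against 349; the first tests fewer genes, and for the second the cause was not tested. Leaving out 1 array gave 4589 to 5310 changed genes, 315 to 417 rises and 119 to 144 falls of 2-fold or more, and 7799 to 9011 changed probe sets. Of changed genes 60.7% rose, against 53.1% with quantile normalisation and 55.4% with median centring.

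Of 328 named genes, 274 kept their call in every alternative that tested them. Genes that the filter of an alternative left out count as kept there, which concerns dim genes. The sign of the change turned for 17, each only with another choice of probe set, whether or not the turned change passed the test. The cause was not tested. With the mean of probe sets the log2 changes were -0.22 for ATP13A3, -0.45 for CLIP1, -0.042 for HNRNPDL, -0.74 for ITPRID2, -0.28 for KMT2E, -0.049 for MBD4, -0.39 for NAA15, -0.66 for PRRC2C, -0.031 for SIRT5, -0.27 for SMARCA2 and -0.27 for SON. Where probe sets of neither the _s_at nor the _x_at class were preferred they were -0.024 for BTG1, 0.82 for CNOT3, 0.18 for DHX36, 0.086 for EIF5B, 0.20 for GATA3, -0.48 for HNRNPDL, -0.044 for NAA15, -0.11 for PRRC2C and -0.012 for UBE2J2. With the mean of probe sets, the turned changes of HNRNPDL, MBD4 and SIRT5 did not pass the limma test (adjusted p = 0.51 to 0.71). With the other preference, only those of CNOT3 and HNRNPDL passed. Signals near the unspiked controls limit the dimmest genes.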

Other observations

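The genes here were singled out after their values were seen. Besides HIRA and UBN1, other genes of histone H3.3 deposition moved in both directions. CABIN1, a further partner of HIRA, fell on 2 of 2 probe sets (log2 change -0.48 ± 0.09 SE), and the H3.3 gene H3-3A fell with -1.21 ± 0.14 on 1 probe set. ASF1B, a histone chaperone of dividing cells, fell with -1.21 ± 0.09, while its relative ASF1A rose by 0.56 ± 0.09 on 2 of 2. UBN2 (0.06 ± 0.14) and the other H3.3 depositors DAXX (-0.28 ± 0.11) and ATRX (-0.05 ± 0.07) did not pass the test on their brightest probe sets. Other probe sets did: 1 of ATRX fell with -2.22 and 1 of DAXX with -0.31, and 1 of UBN2 rose by 0.40.

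Several secreted factors fell. IGF1, the insulin-like growth factor, read 4.69, 4.86 and 4.86 on the vehicle arrays and 3.32, 3.26 and 3.26 on the 16 h arrays, with 1 of 2 probe sets down (log2 change -1.52 ± 0.07 SE, adjusted p = 4.75e-08). The binding protein gene IGFBP2 fell with -1.02 ± 0.07 SE, and the heparin-binding growth factor MDK with -1.19 ± 0.06. CGA, the alpha subunit of pituitary and placental hormones, read 5.60, 5.78 and 5.82 on the vehicle arrays and 4.61, 4.45 and 4.19 on the 16 h arrays (log2 change -1.32 ± 0.15 SE, adjusted p = 3.51e-05). NMB, the peptide neuromedin B, fell with -1.02 ± 0.07 from a bright signal. Among rises outside all lists, the glucocorticoid receptor gene NR3C1 rose on 4 of 4 probe sets (1.06 ± 0.17), SGK1, a kinase that this receptor induces, by 1.56 ± 0.18, and CREBRF, a regulator of that receptor, on 4 of 4 (1.47 ± 0.11). The histone demethylase KDM7A rose by 1.59 ± 0.12 on 2 of 2, and the matrix proteoglycan VCAN by 1.20 ± 0.17 on 3 of 3.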
